A study of Mus musculus with 37 samples.

Results

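The genes described here encode the AMPA receptor subunits (Gria1 to Gria4, for GluA1 to GluA4) and the kainate receptor subunits (Grik1 to Grik5, for GluK1 to GluK5). They were found as the array features whose RefSeq transcript accession belongs to one of these 9 gene symbols. Accessions with identical values on all arrays were counted once, and different transcripts of a gene were kept apart. This gave 13 features (16 accessions) of 18835 distinct features in all, 7 for the 4 AMPA genes and 6 for the 5 kainate genes. Gria2 and Grik1 had 2 features each, Gria4 had 3, and the other genes had 1.

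AMPA receptors are tetramers of GluA subunits that open when glutamate binds and carry most of the fast excitatory current at central synapses. The edited GluA2 subunit keeps calcium out of the channel, and GluA1 is the subunit most closely tied to activity-dependent insertion into synapses. Kainate receptors are tetramers of GluK1 to GluK3, which can form channels alone, and of GluK4 and GluK5, which need one of those as a partner. In the dentate gyrus and its mossy fibre projection, kainate receptors act both before and after the synapse.

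The samples were adult male C57BL/6J mice in 3 groups: forebrain overexpression of the glucocorticoid receptor limited to early life (early-life GRov), the same lasting throughout life (lifetime GRov), and controls without overexpression (No-GRov). Laser capture of 12 µm coronal sections gave tissue of the dentate gyrus (DG), the granule cell region of the hippocampus, and of the nucleus accumbens (NAcc), in the ventral striatum. There were 6 early-life, 6 lifetime and 6 control arrays of DG, and 6, 7 and 6 of NAcc, from 19 animals, of which 18 gave both regions. The RNA passed through 2 rounds of amplification before labelling, the driver of the transgene is not given in the sources used here, and mice of a group are numbered as separate animals.

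The values are log2 signals normalized by the authors, so 1 unit is a doubling of the signal and a level cannot be compared between features. Array medians ran from 6.79 to 6.93 in DG and from 6.13 to 6.50 in NAcc. NAcc array 5 (early-life) stood apart, with a mean correlation of 0.773 with the other NAcc arrays, against 0.973 to 0.980 for the rest. The interquartile range of the signals in DG was 2.85 ± 0.09 in early-life, 2.87 ± 0.10 in lifetime and 2.71 ± 0.04 in control arrays (SD, n = 6 each). The difference from control gave two-sided exact permutation p = 0.00649 (adjusted over 6 contrasts, 0.0195) in the early-life group and 0.00217 (adjusted, 0.0130) in the lifetime group. Since this spread moved with the groups, the main DG results are also given with it as a covariate. The covariate shares part of its variation with the groups. Where a call is lost with it, spread and group therefore cannot be told apart. Nr3c1, the glucocorticoid receptor gene, differed from control by +0.15 (adjusted p = 0.274) in early-life DG, +0.25 (0.0757) in lifetime DG, +0.04 (0.917) in early-life NAcc and +0.35 (1.0) in lifetime NAcc (limma), so none of its differences passed. Whether its probes detect the transgene is not given in the sources used here, so these values do not show whether the transgene was expressed. All 9 granule cell markers were higher in DG than in NAcc, by a median of 4.15, where 82.9% of all tested features were higher and the median of all was +0.71. Only 3 of these 9 were above the filter of the mean signal in NAcc. The others entered the test through their DG signal, which set their direction in advance. Of 11 measured medium spiny neuron markers 10 were lower in DG and 1 was higher, where 754 of 11301 tested features were lower. All 11 were above the filter of the mean signal in NAcc, but 9 were above that in DG. The others may have entered the test through their NAcc signal.

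In DG, the AMPA subunit gene Gria1 was higher in both overexpressing groups, and the kainate subunit genes Grik3 and Grik4 were lower in the lifetime group. The other AMPA features did not pass the test in any DG comparison. In NAcc no receptor feature passed. In microdissected tissue such as this, fewer cells of a type and less RNA per cell cannot be told apart.

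**Figure D1:**
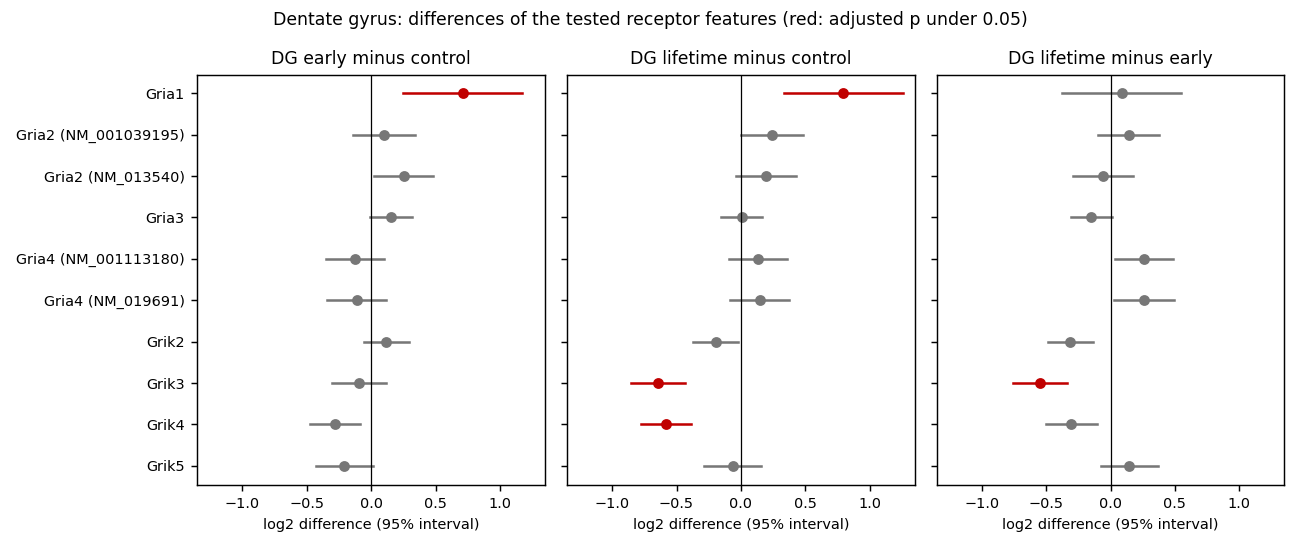
Log2 differences of the 10 tested receptor features in dentate gyrus, with 95% intervals from limma, for early-life minus control, lifetime minus control and lifetime minus early-life GRov; red marks an adjusted p under 0.05. Gria1 lies at +0.71 and +0.80 against control, and Grik3 and Grik4 at -0.64 and -0.58 in the lifetime group.

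Of the 13 features, 10 were above the 40th percentile of the mean signal in DG (6.34) and were tested among 11301 features. Both Grik1 features and the Gria4 feature NM_001113181 were below it. Against control, 1 of the 10 passed an adjusted p of 0.05 in early-life DG (higher), where 11.4% of all tested features passed and 6.17% passed as higher. In lifetime DG 3 of 10 passed, 1 higher and 2 lower, where 15.3% of all passed, 8.88% as higher and 6.45% as lower. Both comparisons used the same control arrays. The median difference of the 10 features was +0.004 in early-life DG (all tested features, -0.008) and +0.07 in lifetime DG (all, +0.002), so the receptor genes as a list were centred near 0.

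Gria1 encodes GluA1. Its lowest, median and highest log2 signals were 10.20, 11.11 and 11.47 in early-life arrays, 10.38, 11.20 and 11.42 in lifetime arrays and 9.69, 10.38 and 10.69 in control arrays. One array of each overexpressing group fell among the controls, and the other 5 of each lay above every control array.

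The mean was 11.01 ± 0.48 in early-life and 11.10 ± 0.38 in lifetime DG, against 10.30 ± 0.41 in control DG (SD, n = 6 each). The difference from control was +0.71 (SE 0.22, 95% interval 0.25 to 1.17, 1.64-fold, 5 of 6 arrays higher than the control mean, adjusted p = 0.0441) for early-life DG. For lifetime DG it was +0.80 (SE 0.22, interval 0.33 to 1.26, 1.74-fold, 6 of 6 arrays higher, adjusted p = 0.0226). The overexpressing groups themselves differed by +0.09 (lifetime minus early-life, interval -0.37 to 0.55, adjusted p = 0.967).

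The Gria1 calls depended on the processing. With the interquartile range as a covariate the differences were +0.26 (adjusted p = 0.737) in early-life and +0.27 (0.731) in lifetime DG. The early-life call was also lost after further quantile normalization (+0.63, adjusted p = 0.0505) and with only the 2 groups in the fit (0.0586). It was lost without early-life array 2, 3, 4 or 5, lifetime array 7, 8 or 12, or control array 14, 15, 16 or 17 (differences 0.59 to 0.77, adjusted p 0.0510 to 0.118). The lifetime call was lost without lifetime array 9 (adjusted p = 0.0611) or 11 (0.0557) or control array 14 (0.0547). Calls over all features also varied with the settings, from 1 to 2419 in early-life and from 74 to 2937 in lifetime minus control DG.

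Gria2 encodes GluA2 and has a feature for each of 2 transcript groups. The feature NM_013540 had lowest, median and highest signals of 12.44, 12.81 and 13.05 in early-life DG, 12.53, 12.79 and 12.87 in lifetime DG and 12.24, 12.63 and 12.82 in control DG. The 3 groups overlapped. Its differences from control were +0.25 (SE 0.11, adjusted p = 0.126) and +0.19 (SE 0.11, adjusted p = 0.224) in early-life and lifetime DG. Without early-life array 1 the early-life difference passed (+0.32, adjusted p = 0.0374), as it did with array weights (+0.30, 0.0464), in 1 of 9 other settings. The feature NM_001039195 differed by +0.10 (adjusted p = 0.570) in early-life and +0.24 (0.151) in lifetime DG, and the lifetime difference passed without control array 19 (+0.34, adjusted p = 0.0320).

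Gria3 (GluA3) averaged 11.28 ± 0.11 in early-life, 11.13 ± 0.14 in lifetime and 11.12 ± 0.12 in control DG (SD, n = 6 each), and its interval for lifetime minus control was -0.16 to 0.17. Gria4 (GluA4) is known mainly from interneurons and from early development. Its features NM_001113180 and NM_019691 averaged 7.18 ± 0.17 and 7.29 ± 0.16 in early-life, 7.44 ± 0.14 and 7.55 ± 0.13 in lifetime and 7.30 ± 0.25 and 7.40 ± 0.27 in control DG. In both features lifetime arrays were above early-life arrays on average, by +0.26 each (adjusted p = 0.384 and 0.404). The feature below the filter, NM_001113181, ran from 4.14 to 4.80, from 4.66 to 5.87 and from 4.08 to 5.25 in early-life, lifetime and control DG.

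**Figure D2:**
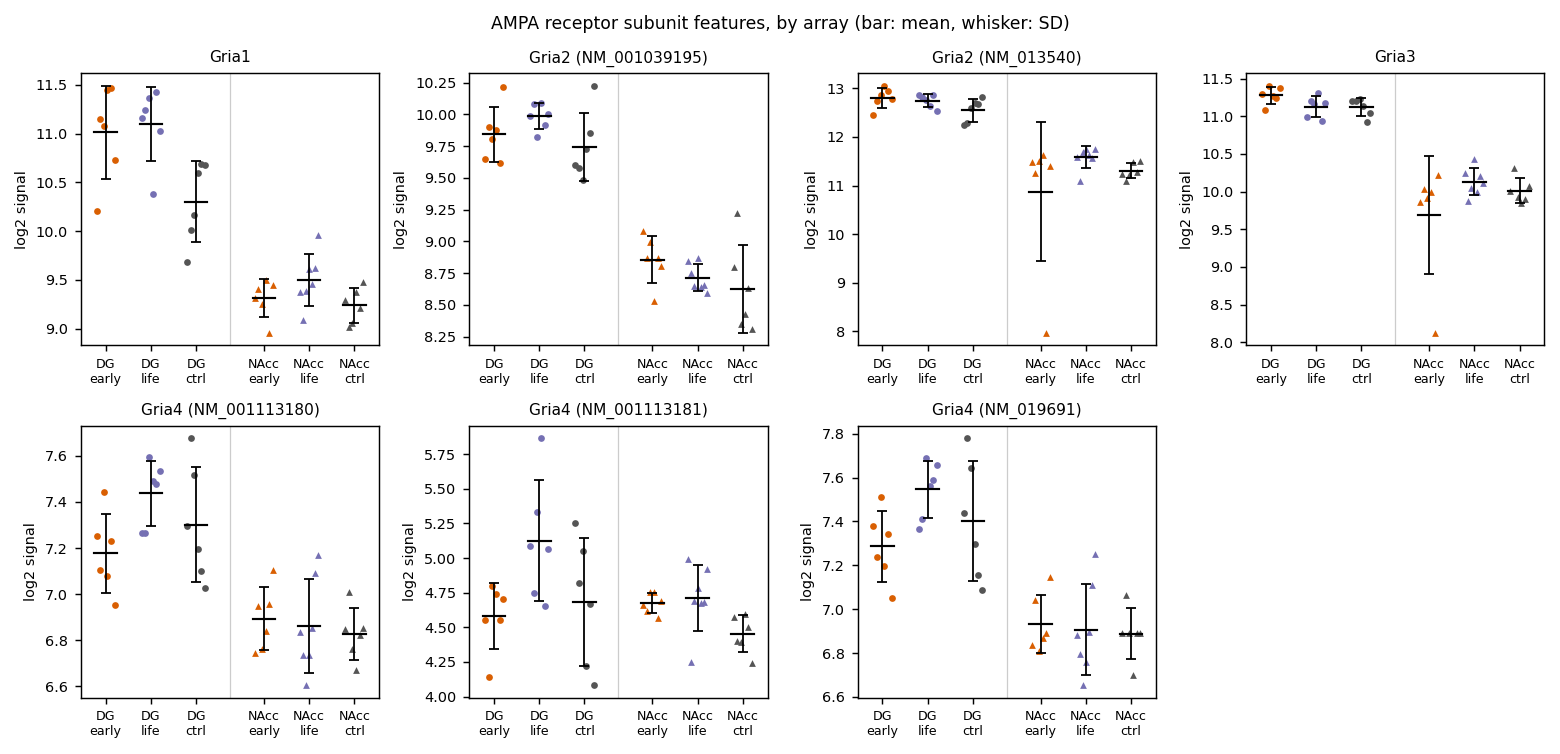
Log2 signal of each of the 7 AMPA receptor subunit features on every array, by region and group (early-life, lifetime and control), with the group mean (bar) and SD (whisker); each panel has its own axis, which does not start at 0. In Gria1, 5 of 6 arrays of each overexpressing DG group lie above every control DG array, and early-life NAcc array 5 lies far below its group in Gria2 (NM_013540) and Gria3.

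Grik3, which encodes the low-affinity kainate subunit GluK3, was lower in lifetime DG than in both other groups. Its lowest, median and highest signals were 7.25, 7.42 and 7.64 in early-life arrays, 6.61, 6.87 and 7.15 in lifetime arrays and 7.29, 7.49 and 7.80 in control arrays. Every lifetime array lay below every early-life and every control array, while the early-life and control arrays overlapped.

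The Grik3 mean was 7.44 ± 0.16 in early-life and 6.89 ± 0.18 in lifetime DG, against 7.53 ± 0.19 in control DG (SD, n = 6 each). Lifetime minus control was -0.64 (SE 0.10, interval -0.85 to -0.43, 0.641-fold, 6 of 6 arrays lower than the control mean, adjusted p = 0.000672). Early-life minus control was -0.09 (SE 0.10, interval -0.30 to 0.12, adjusted p = 0.548). The difference between the overexpressing groups passed on its own: lifetime minus early-life was -0.55 (SE 0.10, interval -0.76 to -0.34, adjusted p = 0.00567). Grik3 was the 1 of 10 receptor features that passed there, where 1.37% of all tested features passed and 0.593% passed as lower; it was also the 1 of 10 whose groups did not overlap there (1.73% of all).

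Grik4 encodes GluK4, a high-affinity subunit known from the hippocampal CA3 field and the dentate gyrus. Its lowest, median and highest signals were 6.78, 7.10 and 7.28 in early-life arrays, 6.66, 6.76 and 6.95 in lifetime arrays and 7.03, 7.36 and 7.57 in control arrays. The lifetime arrays lay below all control arrays, and the early-life arrays overlapped both.

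The Grik4 mean was 7.08 ± 0.16 in early-life and 6.77 ± 0.10 in lifetime DG, against 7.36 ± 0.20 in control DG (SD, n = 6 each). Lifetime minus control was -0.58 (SE 0.09, interval -0.78 to -0.39, 0.667-fold, adjusted p = 0.000775, 6 of 6 arrays below the control mean). Early-life minus control was -0.28 (SE 0.09, interval -0.47 to -0.09, adjusted p = 0.0561, 6 of 6), and it passed without early-life array 6 (adjusted p = 0.0454), lifetime array 10 (0.0493) or control array 15 (0.0287). Lifetime minus early-life was -0.30 (SE 0.09, adjusted p = 0.149), which passed without early-life array 1 (-0.36, adjusted p = 0.0477). It also passed with array weights (-0.36, adjusted p = 0.0123), the 1 of 8 other settings in which it did.

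Grik3 and Grik4 were the 2 of 10 tested receptor features whose lifetime and control DG arrays did not overlap, where 4.77% of all tested features did not. Both falls in lifetime DG passed in each of the 18 fits that left out 1 array. With the interquartile range as a covariate Grik4 differed by -0.66 (adjusted p = 0.0140), and Grik3 by -0.55 (0.0649). Their mean signals were below the 60th percentile, so a stricter filter leaves both untested.

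Grik2 (GluK2), the most widely expressed channel-forming kainate subunit, had lowest, median and highest signals of 7.05, 7.29 and 7.40 in early-life DG, 6.88, 6.91 and 7.08 in lifetime DG and 6.85, 7.19 and 7.32 in control DG. The lifetime arrays lay at the low end of the control range. Lifetime minus early-life was -0.31 (SE 0.08, adjusted p = 0.0740), and it passed when both regions were fitted together with a random block for each animal (-0.31, adjusted p = 0.0226). It also passed with the interquartile range as a covariate (-0.34, adjusted p = 0.0153) and with array weights (-0.33, 0.0104), so in 3 of 8 other settings. Without early-life array 1 (-0.36, adjusted p = 0.0348) or control array 14 (0.0358) it passed too. Lifetime minus control was -0.20 (SE 0.08, adjusted p = 0.109), and it passed without control array 14 (-0.26, adjusted p = 0.0419).

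Grik5 (GluK5), the other high-affinity subunit, averaged 6.63 ± 0.19 in early-life, 6.78 ± 0.14 in lifetime and 6.84 ± 0.23 in control DG (SD, n = 6 each), with overlap of all 3 groups. Grik1 (GluK1) was among the dim features and varied widely between animals. Its feature NM_010348 ran from 5.07 to 5.98 in early-life, from 4.70 to 6.68 in lifetime and from 5.29 to 7.44 in control DG. In a fit without the filter it differed from control by -0.73 (SE 0.35, adjusted p = 0.165) in early-life and -0.64 (SE 0.35, adjusted p = 0.204) in lifetime DG, and the feature NM_146072 by -0.59 (0.200) and -0.62 (0.170).

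**Figure D3:**
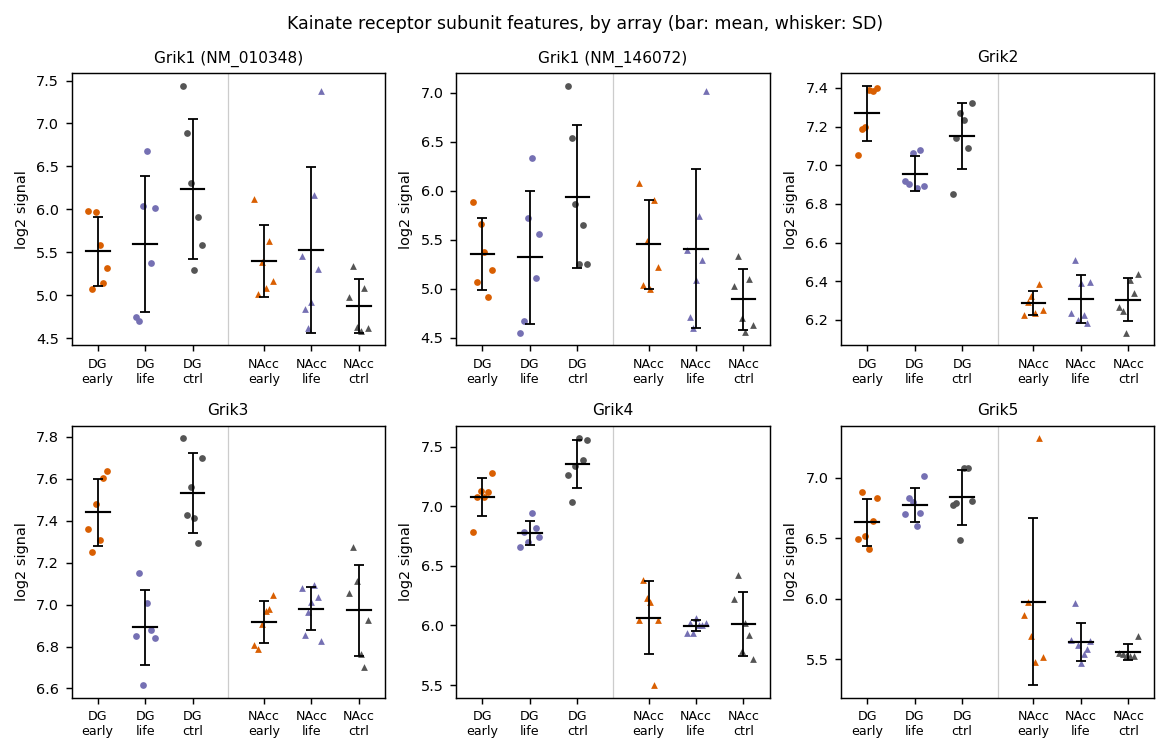
Log2 signal of each of the 6 kainate receptor subunit features on every array, by region and group (early-life, lifetime and control), with the group mean (bar) and SD (whisker); each panel has its own axis, which does not start at 0. All 6 lifetime DG arrays lie below the control DG arrays in Grik3 and Grik4, and no such separation is seen in NAcc.

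RefSeq (GRCm38.p6) gave a window of 250 bases before the annotated start for 6 of the 9 genes. Gria1, Gria3 and Grik1 had no window, so the counts of motifs do not cover them. The windows of Grik3 and Grik4 are shown because these genes fell in lifetime DG, with each CG dinucleotide in capitals. That of Grik3 is chr4:125490446-125490695 on the + strand, and that of Grik4 is chr9:42944372-42944621 on the - strand, read here 5′ to 3′ along the gene.
Grik3: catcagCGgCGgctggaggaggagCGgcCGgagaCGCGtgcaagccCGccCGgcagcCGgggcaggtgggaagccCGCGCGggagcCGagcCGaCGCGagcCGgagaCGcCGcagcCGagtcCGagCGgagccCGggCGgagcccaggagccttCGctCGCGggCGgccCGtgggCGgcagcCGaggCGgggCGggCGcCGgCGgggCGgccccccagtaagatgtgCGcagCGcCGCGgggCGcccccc
Grik4: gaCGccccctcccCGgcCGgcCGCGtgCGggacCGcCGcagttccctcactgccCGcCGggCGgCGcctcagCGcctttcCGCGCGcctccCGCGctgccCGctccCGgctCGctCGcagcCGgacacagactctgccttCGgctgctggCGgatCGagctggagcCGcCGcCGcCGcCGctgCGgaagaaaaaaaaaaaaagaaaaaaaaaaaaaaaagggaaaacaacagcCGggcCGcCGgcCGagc

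Both windows are rich in CG dinucleotides. The Grik3 window holds 42 of them, at the 99.1 percentile of 32851 mouse gene windows, with a GC content of 82.0%. The Grik4 window holds 36, at the 97.4 percentile, with a GC content of 69.6%. The median over all windows was 6 CG dinucleotides and a GC content of 52.4%. None of the 6 receptor windows holds the glucocorticoid receptor core motif TGTTCT on either strand, the palindrome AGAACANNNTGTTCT, which contains that motif, or the TATA box letters TATAAA on either strand. Of all windows, 16.1% hold the core motif, 0.00913% the palindrome and 12.4% TATAAA.

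In NAcc, 9 receptor features were above the filter (5.77), which left out Grik5 as well as the 3 features below it in DG. None passed in early-life minus control (0% of all tested features passed, limma). At an unadjusted p of 0.05 the count was 0 of 9, against 4.92% of all. None passed in lifetime minus control either (0% of all), where 1 of 9, Gria1, had an unadjusted p under 0.05, against 3.67% of all. In lifetime minus early-life NAcc 0 of 9 passed (0.00885% of all), and 0 had an unadjusted p under 0.05, against 5.29% of all.

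Gria1 in NAcc had lowest, median and highest signals of 8.95, 9.36 and 9.50 in early-life arrays, 9.09, 9.46 and 9.96 in lifetime arrays and 9.02, 9.25 and 9.47 in control arrays. All 3 groups overlapped. Lifetime minus control was +0.26 (SE 0.12, interval 0.01 to 0.52, adjusted p = 1.0), and early-life minus control was +0.08 (SE 0.13, interval -0.19 to 0.34, adjusted p = 0.831).

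The kainate genes that fell in DG did not pass in NAcc, and their group means there lay within 0.1 of each other. Grik3 averaged 6.92 ± 0.10 in early-life (n = 6), 6.98 ± 0.10 in lifetime (n = 7) and 6.97 ± 0.22 in control NAcc (SD, n = 6), and lifetime minus control was +0.01 (interval -0.18 to 0.19). Grik4 averaged 6.07 ± 0.31, 6.00 ± 0.05 and 6.02 ± 0.27 in the same groups, and lifetime minus control was -0.02 (interval -0.28 to 0.24).

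Gria2 (NM_013540) and Gria3 rest on NAcc array 5 in the early-life group. Early-life minus control was -0.43 and -0.32 with it, and +0.15 and -0.01 without arrays 5 and 8. Array 8 is a lifetime array on which Gria2 (NM_013540) was also low. Without both, Gria2 (NM_013540) in lifetime minus control NAcc was +0.35 (adjusted p = 0.0293), against +0.27 (adjusted p = 1.0) with them. Since array 8 was low in this feature, leaving it out raises the lifetime mean. The difference passed in 0 of 19 fits without 1 array (limma, lowest adjusted p 0.342). Grik1 (NM_010348) ran from 5.01 to 6.11 in early-life, from 4.62 to 7.38 in lifetime and from 4.58 to 5.34 in control NAcc. In a fit without the filter it differed from control by +0.53 (SE 0.35, adjusted p = 0.786) in early-life and +0.65 (SE 0.34, adjusted p = 1.0) in lifetime NAcc, and the feature NM_146072 by +0.56 (0.786) and +0.51 (1.0).

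The change of Grik3 with lifetime overexpression differed between the regions. Taken within each of the 18 animals as DG minus NAcc, the lifetime effect on Grik3 was -0.68 (SE 0.12, interval -0.93 to -0.42, adjusted p = 0.0124), the 1 of 10 tested receptor features that passed, where 0.593% of all features passed and 0.195% passed as lower. The lifetime and control animals overlapped in this difference. It passed in each of the 18 fits without 1 animal and was -0.76 (adjusted p = 0.00117) without animals 5 and 8. For Grik4 the difference was -0.56 (SE 0.18, adjusted p = 0.230), and it passed with the interquartile ranges as a covariate (-0.67, adjusted p = 0.0432). For Gria1 it was +0.61 (SE 0.26, adjusted p = 0.378) for the lifetime effect and +0.63 (SE 0.26, adjusted p = 0.225) for the early-life effect. For the early-life effect 0 of 10 passed (0% of all, limma), with 2 of 10 at an unadjusted p under 0.05, against 19.5% of all.

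Between the regions, all 10 tested receptor features were higher in DG than in NAcc within animals as deposited, where 89.6% of all tested features passed and 82.9% passed as higher. The median difference of all features was +0.71, so differences are also given relative to it. The receptor features had a median of +1.03, and 7 of 10 lay above the median of all features. Grik4 and Grik5, which are among these 7, averaged 6.03 and 5.72 in NAcc, below the filter of this comparison (6.07). They entered the test through their DG signal, which set their direction in advance.

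Gria1, Gria2 and Gria3 had larger differences than Gria4. Gria1 averaged 10.80 ± 0.54 in DG and 9.33 ± 0.19 in NAcc (SD, n = 18 each), a difference of +1.48 (SE 0.12), or +0.77 relative to all features, above their median in 17 of 18 animals. Gria2 (NM_013540) differed by +1.45 (SE 0.20) and +0.75 relative to all features, and by +1.25 without animal 5. Gria3 differed by +1.23 (SE 0.11), or +0.52 relative. Array by array, both Gria2 features and Gria3 were higher on every DG array than on any NAcc array. The lowest DG array of Gria1 (9.69, control) was below the highest NAcc array (9.96, lifetime). The share of all features that separate in this way was not counted. With 82.9% of all tested features higher in DG, such a separation is not a result about the receptor genes.

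Among the kainate genes, Grik4 averaged 7.07 ± 0.29 in DG and 6.03 ± 0.22 in NAcc (SD, n = 18 each), a difference of +1.05 (SE 0.09), or +0.34 relative to all features. Grik5 differed by +1.02 (+0.32 relative) and Grik2 by +0.83 (+0.12 relative). The direction of Grik4 and Grik5 was set in advance by the filter. Every DG array was above every NAcc array in Grik2 and Grik4, a separation that was not counted over all features. Grik3 and Gria4 changed sign with the scaling. As deposited they were higher in DG, by +0.32 for Grik3 and +0.46 and +0.52 for Gria4 (NM_001113180 and NM_019691). After quantile normalization of all arrays together they were -0.39, -0.26 and -0.20. Control animals alone gave +0.56 for Grik3, +1.34 for Grik4 and +1.06 for Gria1.

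**Figure D4:**
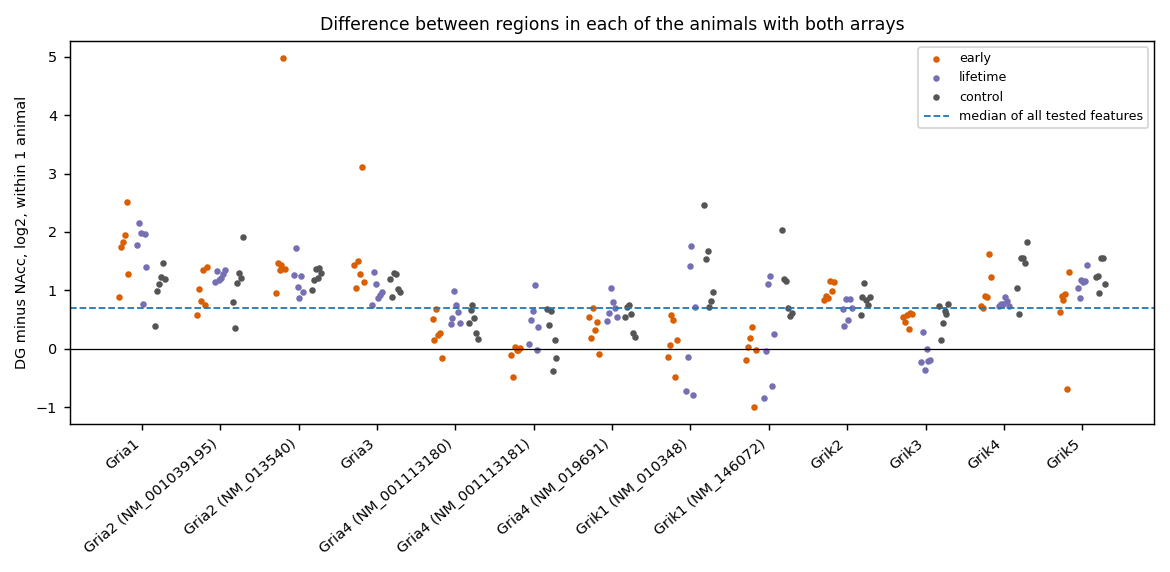
DG minus NAcc log2 signal within each of the 18 animals with both regions, for all 13 receptor features, coloured by group (early-life, lifetime and control); the dashed line is the median of all tested features, +0.71. In Grik3 every lifetime animal lies below every early-life animal, while lifetime and control animals overlap; the mean of Grik3 and of both tested Gria4 features, positive as deposited, turns negative when all arrays are quantile normalized together.

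AMPA receptor complexes also hold auxiliary subunits and are assembled with helper proteins. Of 18 such genes listed, 15 were tested in DG: 0 passed in early-life minus control (median +0.09, limma), against 11.4% of all tested features, and Cacng2 (-0.34, adjusted p = 0.0503) and Gsg1l (+0.52, 0.0762) had the smallest p. In lifetime minus control 3 were higher and 2 lower, against 8.88% and 6.45% of all tested features (median -0.06, all features +0.002). Syndig1, a synaptic transmembrane protein that associates with AMPA receptors, was higher by 0.67 (SE 0.08, adjusted p = 2.02e-05). It was also higher in lifetime than in early-life DG (+0.79, adjusted p = 3.51e-06), and its lifetime effect was larger in DG than in NAcc (+0.63, adjusted p = 0.0203, passing in 12 of 18 fits without 1 animal).

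Gsg1l, an auxiliary subunit that slows recovery from desensitization, was higher by 0.79 (adjusted p = 0.0121), and Porcn, found in native AMPA receptor complexes, by 0.67 (0.0131). Cacng2 (stargazin) and Cacng3, which are transmembrane AMPA receptor regulatory proteins, were lower, by -0.45 (0.0129) and -0.33 (0.0157). Syndig1 passed with the interquartile range as a covariate (+0.60, adjusted p = 0.00510), and the other 4 did not (adjusted p 0.215 to 0.575). The joint fit of both regions with the animal block also draws its variance from the NAcc arrays. In that fit the adjusted p was 0.126 for Cacng2, 0.0570 for Cacng3 and 0.0526 for Gsg1l. The lifetime effect on Porcn was larger in DG than in NAcc (+0.81, adjusted p = 0.0454), a call that held in 5 of 18 fits without 1 animal.

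Of 7 genes of kainate receptor auxiliary subunits and partners, 4 were tested in DG. None passed in early-life minus control (limma), against 11.4% of all tested features, and C1ql3 (+0.38, adjusted p = 0.0558) and Klhl17 (-0.19, 0.149) had the smallest p. Neto1, an auxiliary subunit that slows the decay of kainate currents, was the 1 of 4 that passed in lifetime minus control (+0.60, SE 0.09, adjusted p = 0.000358), where 15.3% of all passed. In the joint fit with the animal block, whose variance also draws on the NAcc arrays, its adjusted p was 0.118, and with the interquartile range 0.0512. Between the overexpressing groups, lifetime minus early-life was +0.43 for Neto1 (adjusted p = 0.0151, and 0.858 in the joint fit) and -0.53 for C1ql3 (0.0387), a secreted protein that binds kainate receptors at mossy fibre synapses. Neto1 and C1ql3 were the 2 of 4 tested genes that passed between the overexpressing groups, where 1.37% of all tested features passed. The C1ql3 call held in 8 of 18 fits without 1 array.

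**Figure D5:**
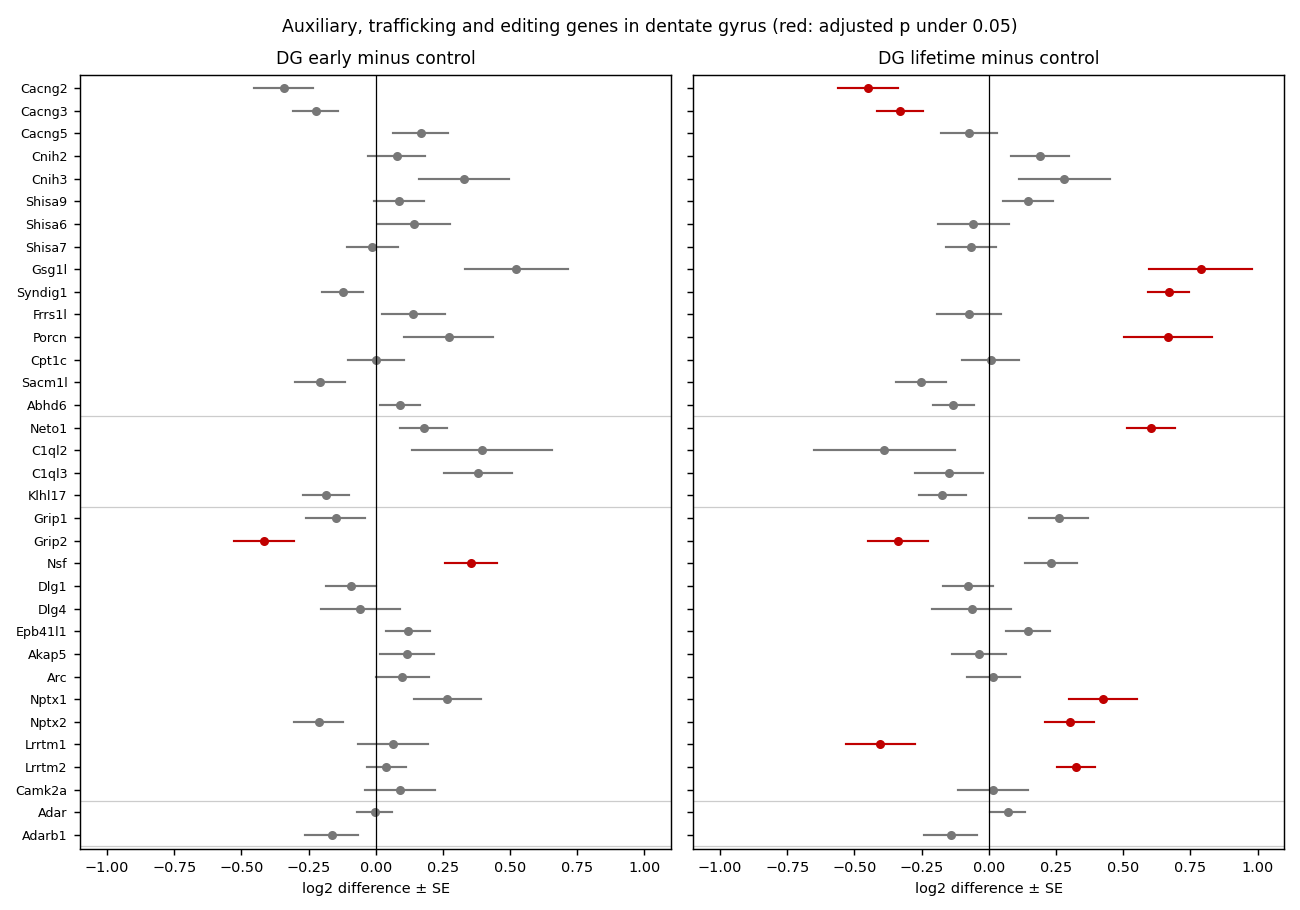
Log2 difference with its SE in dentate gyrus for the tested auxiliary, trafficking and editing genes, early-life minus control (left) and lifetime minus control (right); red marks an adjusted p under 0.05, and horizontal lines part the lists. Grip2 and Nsf are red on the left, and 11 genes on the right, among them Syndig1 and Neto1.

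Among the 13 tested genes of receptor trafficking and synaptic anchoring, 1 was higher and 1 lower in early-life DG, where 11.4% of all tested features passed. Nsf, an ATPase that binds GluA2, was higher by 0.35 (adjusted p = 0.0291, and 0.366 in the joint fit with the animal block). Grip2, a scaffold that binds GluA2 and GluA3, was lower in early-life (-0.42, adjusted p = 0.0281) and in lifetime DG (-0.34, 0.0470). In lifetime DG 3 were higher and 2 lower, where 15.3% of all passed. The neuronal pentraxin Nptx1, which gathers AMPA receptors, was higher by 0.42 (0.0292, and 0.222 in the joint fit), the synapse organizer Lrrtm2 by 0.32 (0.00760) and Nptx2 by 0.30 (0.0330), and Lrrtm1 was lower (-0.40, 0.0427). None of these differences from control passed with the interquartile range as a covariate. In fits without 1 array, Lrrtm2 passed in 18 of 18, Nsf and early-life Grip2 in 13, Nptx1 in 12, Nptx2 in 10, Lrrtm1 in 8 and lifetime Grip2 in 6 of 18. Nptx2 was higher in lifetime than in early-life DG (+0.51, adjusted p = 0.00497). Of the 2 tested RNA editing enzymes, which edit GluA2 among other transcripts, neither passed (Adarb1 in early-life DG, -0.16, adjusted p = 0.258).

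In NAcc no gene of these 4 lists passed in any comparison of groups. Of all tested features 0% passed in early-life and lifetime minus control, and 0.00885% in lifetime minus early-life. Between regions, as deposited, the median of all tested features was +0.71 and 82.9% passed as higher in DG. The AMPA auxiliary gene Shisa6 was higher in DG by 4.22, and the kainate receptor ligands C1ql2 and C1ql3 by 3.13 and 2.91. Nptx1 was higher in DG by 2.90 and Adarb1 by 1.63, and Grid1, a delta glutamate receptor gene, was lower by -0.77.

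Markers of cell types moved in DG beside these genes. Of 9 granule cell markers 4 were higher in early-life and 3 in lifetime DG, with 0 lower, where 6.17% and 8.88% of all tested features were higher. The log2 of their summed level ran from 14.27 to 14.76 in early-life, from 14.17 to 14.56 in lifetime and from 13.91 to 14.72 in control arrays. Of 6 tested markers of pyramidal and mossy cells 0 passed in early-life and 1 was higher and 1 lower in lifetime DG, with summed levels of 11.22 to 11.76, 11.66 to 12.01 and 11.27 to 12.03 in early-life, lifetime and control arrays. Of 6 tested microglial markers 1 was lower in early-life and 2 in lifetime DG, with summed levels of 10.72 to 11.39, 10.83 to 11.20 and 11.11 to 11.24. Of all tested features 11.4% passed in early-life and 15.3% in lifetime DG. With the interquartile range as a covariate none of these marker differences from control passed (adjusted p 0.127 to 0.609). Their part in the changes of Gria1, Grik3 and Grik4 was not tested.

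Over the 18 DG arrays, the genes most like each changed subunit gene were found by Pearson correlation of the log2 signal, given as a description since the arrays share groups and array spread. For Gria1 they were Epn2 (r = 0.963), Cnot6l (0.961) and Dlg3 (0.960). For Grik3 they were Popdc3 (0.893), Tmem131l (0.889) and Dsg2 (0.884). For Grik4 they were Fut8 (0.875), Slco4c1 (0.8745) and Iqca (0.874).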

How the data were processed

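The deposited values are log2 signals that the authors produced by RMA (version not stated), per the submitters' processing notes; the array's probe grouping and build are not given in the sources used here. They ran from 3.23 to 15.2, 1 value for each of 24142 RefSeq accessions. Accessions with identical values (5307) were merged, and symbols came from a RefSeq table (GRCm38.p6, 20920 matched). Each region was fitted alone with limma 3.58.1 (R 4.3.3), the 3 groups sharing 1 variance, on features above the 40th percentile of the mean, with two-sided tests and Benjamini-Hochberg adjustment over all 11301. Regions were compared over 18 animals, each a fixed block, and effects of overexpression on DG minus NAcc within animals.

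Arrays of the 2 regions with the same number in their titles were taken as 1 animal, since the series design says that both areas came from each animal. In a fit of both regions with a random block per animal, the consensus correlation was 0.060 for the DG features and 0.055 for the NAcc features. Within a region no numbers are shared, so groups there are unpaired.

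Members and lists were chosen with earlier results of these data known. Named genes are all receptor features, Nr3c1, per pathway list and comparison the up to 4 largest changes that passed (or the 2 smallest p), and the 3 genes most correlated with each changed receptor gene. Cacng3 and Nptx2 in lifetime minus control DG fall outside that rule and were named after their values were seen, to complete the counts. The 12 lists were pathway genes and cell type markers, with 1 feature per gene. Alternatives were the filter, normalization, array spread, array weights, variance model, groups in the fit, the animal block and leaving out arrays. The number of arrays limits the precision, and probe-level depth is not part of these values. Marker lists of interneurons, astrocytes, oligodendrocytes and their precursors were also counted in DG: 1 of 9, 0 of 9, 0 of 10 and 1 of 3 tested genes passed in early-life minus control, and 1, 0, 1 and 0 in lifetime minus control. The interneuron and precursor calls in early-life DG were lower. In lifetime DG the interneuron call was higher and the oligodendrocyte call lower. Of the medium spiny neuron markers 2 of 9 passed in each comparison, 1 higher and 1 lower. Of all tested features 11.4% passed in early-life and 15.3% in lifetime minus control.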

Additional observations from a re-analysis of the deposited data

Results flagged for a closer look

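An array far from the other arrays of its group was found in 8 of 78 sets of values (13 features in 6 groups), where chance alone gives about 1 in 20, and 3 of the 8 were early-life NAcc array 5. On that array Gria2 (NM_013540) had a log2 signal of 7.97, against 11.27 to 11.62 on the other early-life NAcc arrays. Gria3 was at 8.12 there, against 9.86 to 10.23, and Grik5 at 7.33, against 5.47 to 5.97.

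On lifetime NAcc array 8, Gria2 (NM_013540) was at 11.10, against 11.56 to 11.75 on the others of its group, Gria4 (NM_001113181) at 4.25, against 4.677 to 4.995, and Grik5 at 5.97, against 5.46 to 5.66. Grik5 on control NAcc array 19 was at 5.69, against 5.53 to 5.55. Gria4 (NM_001113181) on early-life DG array 2 was at 4.14, against 4.55 to 4.80.

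The effect of lifetime overexpression on Grik3 differed between the regions when that difference itself was tested: DG minus NAcc was -0.68 (adjusted p = 0.0124, limma). No explanation of these values was tested.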

How the results depend on the processing

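The count of receptor features passing in early-life minus control DG (1) was 0 after further quantile normalization, with the interquartile range as a covariate, or with only the 2 groups in the fit, and 2 with array weights (0 to 2 when 1 array was left out). Lifetime minus control DG (3) gave 1 with a 60th percentile filter or with the interquartile range (2 to 4 when 1 array was left out). Lifetime minus early-life DG (1) gave 0 with the stricter filter, 2 with the interquartile range, 3 with array weights and 2 when both regions were fitted together with the animal as a replicate block (1 to 3 when 1 array was left out). That fit changes the arrays that set the variance as well as the block, and the 2 were not parted; it changed no other receptor call within a region. Lifetime minus control NAcc (0) gave 1 without arrays 5 and 8, and 0 in each fit without 1 array. The lifetime effect in DG minus NAcc (1) gave 2 with the interquartile range. The causes were not tested, except that the stricter filter leaves out Grik3 and Grik4.

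DG minus NAcc turned to -0.26 for Gria4 (NM_001113180), -0.20 for Gria4 (NM_019691) and -0.39 for Grik3 after quantile normalization of all arrays, and to -0.20, -0.14 and -0.34 after centring. Over all features, the calls of early-life minus control DG (1291) ran from 1 to 2419 across settings, and from 213 to 2273 when 1 array was left out. Those of lifetime minus control DG (1733) ran from 74 to 2937 and from 808 to 2611, and those of lifetime minus early-life DG (155) from 121 to 433 and from 109 to 185. NAcc comparisons had 0, 0 and 1 calls, with up to 287, 279 and 61 under another setting.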
